A study of Mus musculus with 9 samples.

Results

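The TNF superfamily genes of cultured mouse bone marrow (BM) macrophages were followed across 3 groups of 3 RNA-Seq libraries. Members were taken by gene symbol: Tnf, the numbered Tnfsf ligands and Tnfrsf receptors, the numbered Traf adaptors and the Tnfaip genes, each with the genes named after them. The symbol pattern matched 44 of the 13526 genes of the table, and leaving out Tnfrsf11a, Tnfaip3, Traf2, Traf3 and Traf6, as the rule asks, gave 39 members. These were 10 ligands, 3 receptors with a death domain, 9 receptors without, 4 decoy or soluble receptors, 4 Traf adaptors, 3 Traf-interacting proteins and 6 genes named for induction by TNF or for kinship with such a gene. The cells came from the BM of C57BL/6 mice aged 8 weeks and were grown for 3 days with 10 ng/mL M-CSF, the growth factor that keeps macrophages alive.

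The first group then received RANKL plus rmCst6 (recombinant mouse cystatin E/M, a secreted inhibitor of cysteine proteases) for 48 hours, the second RANKL alone for 48 hours, and the third, the control, no RANKL. No gene was deleted or added in any group. The text used here does not state whether control macrophages spent the same 48 hours in culture or in M-CSF, does not give the RANKL and rmCst6 doses of these cultures, and does not say whether the 3 libraries of a group came from separate mice or cultures. Differences from control can therefore not be told apart from differences in culture time, and the p-values speak only of the spread among these libraries, which may be technical.

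TNF superfamily ligands are trimeric proteins, made at the cell surface and often shed, that gather their receptors into clusters. Receptors with a death domain can recruit caspases, while receptors without one bind TRAF adaptors, which pass the signal to the NF-kappa B and MAP kinase pathways. RANKL is itself a ligand of this family, its receptor on macrophages drives their fusion into bone-resorbing osteoclasts, and the soluble receptor Tnfrsf11b (osteoprotegerin) captures it. TNF acts on the same precursors and is known both to promote osteoclast formation beside RANKL and to be made by the macrophages themselves.

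Values are the deposited log2 normalized expression, on which 1 unit is a doubling and an exact 0 is the lowest value. They are not scaled by gene length, so levels were compared between groups and not between genes. Of the 39 members, 36 reached a linear value of 10 in at least 3 libraries and were tested with limma, while Tnfrsf17, Tnfrsf18 and Tnfaip6 did not and are described by their values. Among the tested members, Tnfsf4, Tnfsf8 and Tnfrsf9 reached that value in the 3 libraries of 1 group and in at most 1 other library, so these passed only by being high in that group. Adjusted p-values are from limma with the Benjamini-Hochberg method over the 12932 genes tested, with calls at an adjusted p under 0.05, and a fold change on this scale understates the change of genes near 0.

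The labels were checked against marker genes. All 8 osteoclast markers fell with RANKL plus rmCst6 against RANKL and rose with RANKL against control, and Ctsk, the bone-degrading protease of osteoclasts, averaged 8.46 in RANKL plus rmCst6, 16.57 in RANKL and 6.08 in control libraries. All 8 macrophage markers were measured in every group, but did not move together. Of these, 4 rose and 1 fell with RANKL plus rmCst6 against RANKL, with Fcgr1 89.3-fold higher and Csf1r 3.14-fold lower. Against control, 1 rose and 7 fell with RANKL. Markers of neutrophils and their progenitors moved too: 11 of the 12 rose with RANKL plus rmCst6 against RANKL, and their summed linear level was 48200 to 56500 in RANKL plus rmCst6, 5990 to 9960 in RANKL and 17500 to 24200 in control libraries. All 3 endothelial markers tested also rose in that comparison, while Tek and Emcn were not among the genes of the table. Their summed level was 3280 to 3800 in RANKL plus rmCst6, 332 to 363 in RANKL and 128 to 202 in control libraries. Most of this sum in the groups given RANKL was Kdr, which averaged 11.69, 8.36 and 5.30 on the log2 scale in these groups. Cdh5 averaged 6.32, 2.84 and 3.85, and Pecam1 6.12, 4.17 and 6.68. With RANKL plus rmCst6 against control, 2 of the 3 were higher and Pecam1 was 1.48-fold lower. For T cells and mast cells, defining markers such as Cd3e and Cpa3 were not among the genes of the table. Of the 3 T and NK cell markers tested, 1, Nkg7 (6.30-fold, limma adjusted p = 9.3e-05), rose with RANKL plus rmCst6 against RANKL. The 1 mast cell marker tested, Kit (2.55-fold, limma adjusted p = 0.0023), rose there too. The summed level was 269 to 327 in RANKL plus rmCst6, 219 to 340 in RANKL and 156 to 190 in control libraries over the 5 T and NK cell markers of the table, and 107 to 124, 33.8 to 56.1 and 30.2 to 80.4 in these groups over the 2 mast cell markers of the table. The part of these cells in the values below was not tested, and in bulk RNA fewer cells of a type cannot be told apart from less RNA per cell. Libraries of the same group correlated across genes at r = 0.989 to 0.991 and those of different groups at 0.859 to 0.903.

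A few promoters are shown first, those of the 4 tested members with a match to the kappa B motif or the interferon-stimulated response element, motifs of factors that act below these receptors and the interferon receptors. RefSeq windows from 250 bases before to 50 bases after the start site (GRCm38.p6) were found for 30 of the 39 members, 32 windows in all. Capitals mark a match, and each stretch is written 5′ to 3′ on the gene's strand, from 20 bases before the first match to 20 bases after the last, or to the base before the start site.
Tnfrsf9, second start site (chr4:150927936-150927998, plus strand): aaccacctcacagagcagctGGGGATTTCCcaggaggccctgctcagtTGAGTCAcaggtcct
Tnfsf13b, second start site (chr8:10006486-10006632, plus strand): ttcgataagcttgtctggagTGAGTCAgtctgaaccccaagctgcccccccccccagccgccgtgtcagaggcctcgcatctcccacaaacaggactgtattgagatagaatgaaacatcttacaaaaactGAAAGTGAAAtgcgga
Tnfrsf1b (chr4:145246871-145246900, minus strand): cctagctcctggcctgagggTTTCGCTTTC
Tnfrsf14 (chr4:154928112-154928161, minus strand): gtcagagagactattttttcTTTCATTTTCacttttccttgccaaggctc

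In the Tnfrsf9 stretch the first match is the kappa B motif (GGG, any 2 bases, TTTCC), from 43 to 34 bases before the start site, and the second is the AP-1 motif TGANTCA. The kappa B motif was in 1 of the 32 member windows and in 1.63% of all 32851 windows. The interferon-stimulated response element (GAAA, any 2 bases, GAAA), the last match in the Tnfsf13b stretch and, read on the other strand, the match in Tnfrsf1b and Tnfrsf14, was in 4 of the 32 member windows, also that of Tnfrsf17, and in 3.44% of all windows. The AP-1 motif, the first match in the Tnfsf13b stretch, was in 7 of the 32 member windows and in 7.81% of all windows. The 7 windows belong to 6 members, since the overlapping windows of Tnfsf13b hold the same site. Both strands were searched, and the motifs did not overlap in these stretches. A match describes letters and not the binding of a factor in these cells.

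The first question was how rmCst6 changed the superfamily in RANKL-treated macrophages. With RANKL plus rmCst6 against RANKL, 20 of the 36 tested members were higher, where 34.8% of all genes tested were higher, and 9 were lower, where 38% of all genes were lower. The median log2 fold change was 0.37 over the tested members and -0.02 over all genes. Of the 10 ligands, 8 were higher and 1 was lower (median 1.86). The 8 include Tnfsf4 and Tnfsf8, and the 9 lower members include Tnfrsf9, which passed the filter only by being high in 1 group. Their calls and p-values were favored by the filter wherever that group was compared. The neutrophil markers rose in the same comparison, 11 of 12, and their part in these counts was not tested. With RANKL against control, 8 tested members were higher, beside 36.6% of all genes, and 19 were lower, beside 35.9% of all genes. The median there was -0.36 over the tested members and -0.01 over all genes, and 7 of the 10 ligands were lower and 1 was higher. With RANKL plus rmCst6 against control, 12 members were higher, beside 36.7% of all genes, and 15 were lower, beside 35.1% of all genes. Without the filter, when every member entered the fit, 31 of 39 were called with RANKL plus rmCst6 against RANKL (21 higher, 10 lower), beside 9563 of 13526 genes (4562 higher, 5001 lower). With RANKL against control 27 were called (8 higher, 19 lower), beside 9548 genes (4792 higher, 4756 lower). The comparisons share libraries, so they are not independent of each other.

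**Figure D1:**
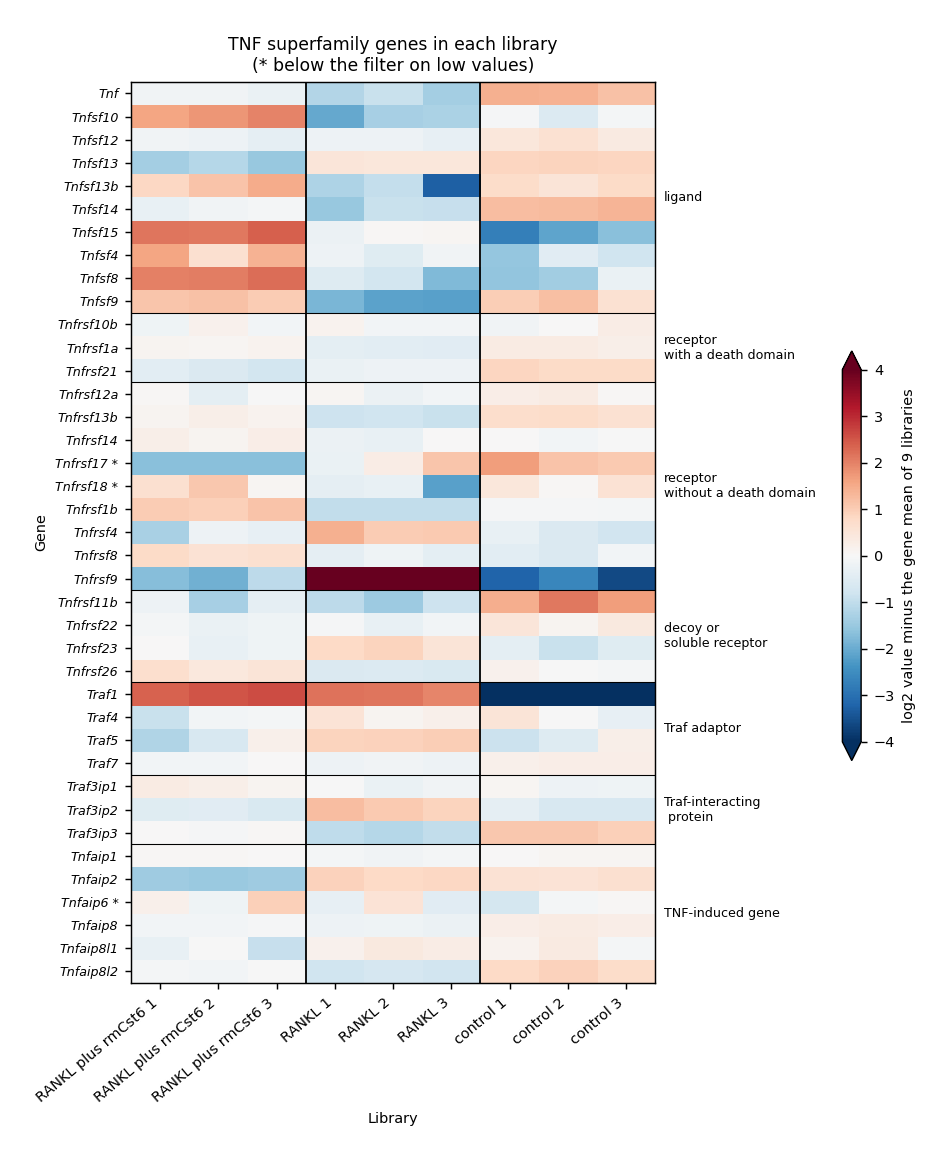
Heat map of the 39 members (rows, by role) in the 9 libraries (columns). Color is the log2 value minus the gene's mean over the 9 libraries, and an asterisk marks the 3 members below the filter. Traf1 is high in all 6 libraries with RANKL, Tnfrsf9 is high in the 3 RANKL libraries, and 7 of the 10 ligands were lower with RANKL than in control.

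Tnf, the ligand that names the family, fell with RANKL and was partly higher again with rmCst6. Its log2 values were 10.59, 10.59 and 10.49 in RANKL plus rmCst6 libraries, 9.58, 9.84 and 9.39 in RANKL libraries and 12.18, 12.13 and 11.90 in control libraries. The 3 groups did not overlap, with control highest and RANKL lowest. The log2 fold change was 0.95 ± 0.10 (SE) with RANKL plus rmCst6 against RANKL (1.93-fold higher, limma adjusted p = 2.6e-06) and -2.46 ± 0.10 with RANKL against control (5.50-fold lower, adjusted p = 3.7e-10). RANKL plus rmCst6 remained 2.85-fold below control (log2 fold change -1.51, adjusted p = 3.2e-08). Tnf lies at chr17:35199381-35202007 on the minus strand (GRCm38).

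Tnfsf10 encodes TRAIL, which triggers cell death through Tnfrsf10b in the mouse. It had log2 values of 9.22, 9.43 and 9.63 in RANKL plus rmCst6, 5.60, 6.33 and 6.38 in RANKL and 7.61, 7.10 and 7.58 in control libraries. Every RANKL plus rmCst6 library was above every control library, and every control library was above every RANKL library. The gene was 10.0-fold higher with RANKL plus rmCst6 than with RANKL (log2 fold change 3.32 ± 0.21, limma adjusted p = 1.7e-08), the largest rise among the tested members, and 2.51-fold lower with RANKL than in control (-1.33 ± 0.21, adjusted p = 9.5e-05). Its receptor Tnfrsf10b averaged 7.61 ± 0.17 in RANKL plus rmCst6, 7.63 ± 0.14 in RANKL and 7.71 ± 0.24 in control libraries (SD, n = 3 each). The 95% interval of the Tnfrsf10b difference with RANKL plus rmCst6 against RANKL ran from -0.34 to 0.30, and the gene was not called in any of the 3 comparisons.

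Tnfsf9, the ligand of the costimulatory receptor Tnfrsf9, went the opposite way to its receptor. Tnfsf9 had log2 values of 8.51, 8.57 and 8.42 in RANKL plus rmCst6, 5.56, 5.26 and 5.23 in RANKL and 8.39, 8.60 and 7.99 in control libraries. The RANKL libraries were all lower than the others, while RANKL plus rmCst6 and control overlapped. It was 8.88-fold higher with RANKL plus rmCst6 than with RANKL (log2 fold change 3.15 ± 0.16, limma adjusted p = 2.1e-09) and 7.89-fold lower with RANKL than in control (-2.98 ± 0.16, adjusted p = 4.6e-09). Between RANKL plus rmCst6 and control the difference was 0.17, with a 95% interval of -0.18 to 0.52.

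Tnfrsf9 itself had log2 values of 2.78, 2.55 and 3.45 in RANKL plus rmCst6, 9.42, 9.11 and 9.01 in RANKL and 1.28, 1.87 and 0.87 in control libraries. All 3 RANKL libraries were high, 1 RANKL plus rmCst6 library was just over the level of the filter, and the 3 groups did not overlap. The log2 fold change was -6.25 ± 0.34 with RANKL plus rmCst6 against RANKL (limma adjusted p = 3.3e-09) and 7.84 ± 0.34 with RANKL against control (adjusted p = 5.2e-10). These sizes depend on the value added to the low group, and with a further 8 added on the linear scale they were -5.22 and 5.79. The rise with RANKL against control was then smaller than that of Traf1, at 6.41. Tnfrsf9 lies at chr4:150914562-150946102 (plus strand) and overlaps Camta1 on the other strand. The library kit kept strand, but no source used here says whether the counting used it. The same holds for all 17 members that overlap an annotated gene on the other strand, among them also Traf3ip3, Tnfsf9 and Tnfaip2.

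Tnfsf13b (BAFF), which keeps B cells alive, had log2 values of 5.75, 6.08 and 6.40 in RANKL plus rmCst6, 3.70, 3.96 and 1.65 in RANKL and 5.67, 5.45 and 5.68 in control libraries. All RANKL libraries were low, RANKL replicate 3 most of all, and RANKL plus rmCst6 and control did not overlap but were not called apart (log2 fold change 0.48, limma adjusted p = 0.39). The gene was 7.85-fold higher with RANKL plus rmCst6 than with RANKL (2.97 ± 0.48, adjusted p = 1.2e-04) and 5.65-fold lower with RANKL than in control (-2.50 ± 0.48, adjusted p = 5.0e-04). Without RANKL replicate 3 these log2 fold changes were 2.25 and -1.77, and with a further 8 added on the linear scale 2.10 and -1.68, all still called.

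Tnfsf13 (APRIL) and Tnfsf12 (TWEAK) are neighbors on chromosome 11, 0.47 kb apart on the same strand, and moved differently. Tnfsf13 averaged 7.02 ± 0.20 in RANKL plus rmCst6, 8.81 ± 0.03 in RANKL and 9.23 ± 0.01 in control libraries (SD, n = 3 each). It was the only ligand that fell with RANKL plus rmCst6 against RANKL (3.48-fold, log2 fold change -1.80 ± 0.10, limma adjusted p = 6.6e-09). Tnfsf12 averaged 10.00 ± 0.11, 10.00 ± 0.06 and 10.71 ± 0.14 in the same order of groups, with a difference of 0.0048 between RANKL plus rmCst6 and RANKL (95% interval -0.17 to 0.18) and a fall of 1.64-fold with RANKL against control. Within each library, Tnfsf13 minus Tnfsf12 was -2.99 ± 0.15 in RANKL plus rmCst6, -1.18 ± 0.05 in RANKL and -1.48 ± 0.12 in control libraries. These did not overlap between groups, at p = 0.1 by a two-sided exact permutation test of each pair of groups, the smallest p that 3 against 3 libraries allow. A read-through gene, Tnfsfm13, overlaps both on the same strand, so reads in it could have been given to either.

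Receptors of these B cell ligands were measured too. Tnfrsf13b (TACI), which binds both Tnfsf13b and Tnfsf13, averaged 9.71 ± 0.05 in RANKL plus rmCst6, 8.71 ± 0.05 in RANKL and 10.24 ± 0.06 in control libraries (SD, n = 3 each). It rose 2.01-fold with RANKL plus rmCst6 against RANKL (limma adjusted p = 1.8e-08) and fell 2.90-fold with RANKL against control (adjusted p = 4.2e-10). Tnfrsf17 (BCMA), a receptor of plasma cells, was below the filter. It was at an exact 0 in every library of RANKL plus rmCst6, with 1.40, 1.98 and 2.76 in RANKL and 3.34, 2.81 and 2.73 in control libraries. Markers of B cells and plasma cells, which carry these receptors, moved too. All 3 B cell markers tested were higher with RANKL plus rmCst6 than with RANKL and 2 of 3 were lower with RANKL than in control, with a summed linear level of 491 to 863 in RANKL plus rmCst6, 262 to 346 in RANKL and 3870 to 4440 in control libraries, and Ighm averaged 6.96, 6.36 and 11.90 on the log2 scale in these groups. All 3 plasma cell markers tested fell with RANKL plus rmCst6 against RANKL, while 1 rose and 1 fell with RANKL against control, with a sum of 3140 to 3190 in RANKL plus rmCst6, 15400 to 16600 in RANKL and 5200 to 5640 in control libraries. The part of such cells in the receptor values was not tested. The Tnfsf12 receptor Tnfrsf12a (Fn14) averaged 7.05, 7.07 and 7.37 in RANKL plus rmCst6, RANKL and control libraries and was called in no comparison.

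Tnfsf15 (TL1A), a ligand that costimulates T cells, rose in both comparisons. Its log2 values were 8.67, 8.64 and 8.91 in RANKL plus rmCst6, 6.31, 6.56 and 6.62 in RANKL and 3.78, 4.40 and 4.85 in control libraries. The 3 groups did not overlap, and stood in that order from high to low. It was 4.74-fold higher with RANKL plus rmCst6 than with RANKL (log2 fold change 2.25 ± 0.24, limma adjusted p = 2.2e-06) and 4.44-fold higher with RANKL than in control (2.15 ± 0.24, adjusted p = 3.5e-06). RANKL plus rmCst6 stood 21.1-fold above control (4.40 ± 0.24, adjusted p = 3.6e-09).

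Tnfsf8, the ligand of CD30 (Tnfrsf8), lies 86.2 kb from Tnfsf15 on chromosome 4 with no coding gene between them. It had log2 values of 5.73, 5.76 and 5.95 in RANKL plus rmCst6, 3.20, 2.98 and 1.95 in RANKL and 2.16, 2.33 and 3.46 in control libraries. Only the RANKL plus rmCst6 libraries were high, and the other groups overlapped. The log2 fold change with RANKL plus rmCst6 against RANKL was 3.10 ± 0.43 (limma adjusted p = 3.2e-05), and 2.12 with a further 8 added on the linear scale. The receptor Tnfrsf8 averaged 6.41 ± 0.10 in RANKL plus rmCst6, 5.44 ± 0.12 in RANKL and 5.38 ± 0.24 in control libraries (SD, n = 3 each) and rose 1.95-fold with RANKL plus rmCst6 against RANKL (adjusted p = 6.2e-04). Between RANKL and control the Tnfrsf8 difference was 0.06 (95% interval -0.36 to 0.48).

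Tnfsf4 (OX40 ligand) was low throughout, at 4.84, 3.91 and 4.65 in RANKL plus rmCst6, 3.07, 2.79 and 3.11 in RANKL and 1.73, 2.82 and 2.45 in control libraries. It rose with RANKL plus rmCst6 against RANKL (log2 fold change 1.47 ± 0.41, limma adjusted p = 0.0060), or 0.92 with a further 8 added on the linear scale. Its receptor Tnfrsf4 (OX40) was high in the RANKL libraries instead. Tnfrsf4 averaged 3.88 ± 0.60 in RANKL plus rmCst6, 5.65 ± 0.23 in RANKL and 3.95 ± 0.22 in control libraries (SD, n = 3 each), a fall of 3.40-fold with RANKL plus rmCst6 against RANKL (adjusted p = 3.2e-04) and a rise of 3.25-fold with RANKL against control (adjusted p = 4.4e-04). Tnfrsf18 (GITR), 9.55 kb from Tnfrsf4, was below the filter, with 2.82, 3.25 and 2.25 in RANKL plus rmCst6, 1.81, 1.87 and 0 in RANKL and 2.62, 2.21 and 2.74 in control libraries.

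Tnfsf14 (LIGHT) fell with RANKL and was only partly higher with rmCst6. Its values were 4.67, 4.81 and 4.87 in RANKL plus rmCst6, 3.44, 4.06 and 4.03 in RANKL and 6.18, 6.22 and 6.31 in control libraries. Every control library was above every RANKL plus rmCst6 library, which in turn was above every RANKL library. The log2 fold change was 0.94 ± 0.24 with RANKL plus rmCst6 against RANKL (limma adjusted p = 0.0035) and -2.39 ± 0.24 with RANKL against control (adjusted p = 1.6e-06). The receptor Tnfrsf14 (HVEM) averaged 10.28 ± 0.08, 9.90 ± 0.16 and 10.03 ± 0.06 in RANKL plus rmCst6, RANKL and control libraries (SD, n = 3 each), a rise of 1.30-fold with RANKL plus rmCst6 against RANKL (adjusted p = 8.9e-04).

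**Figure D2:**
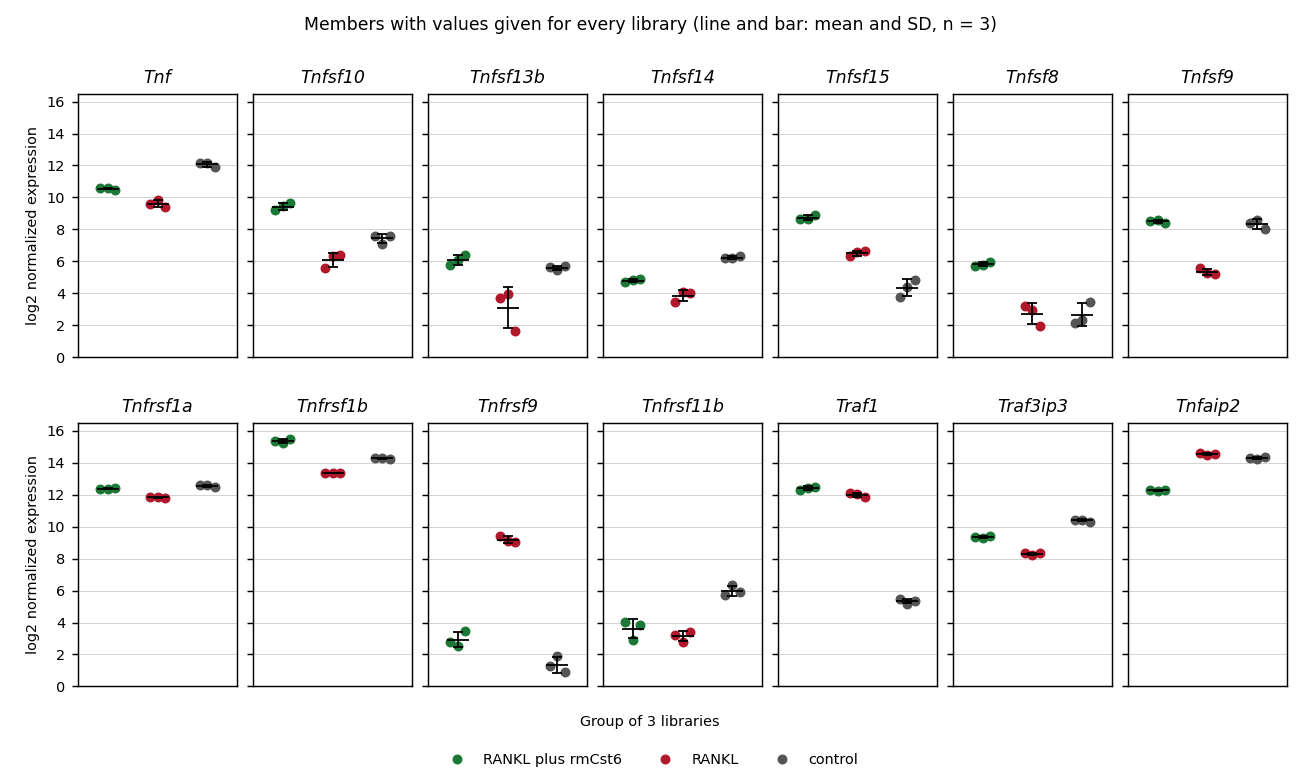
Log2 normalized expression of 14 members in each library (points), with the mean and SD of 3 libraries (line and bar), for RANKL plus rmCst6, RANKL and control from left to right in each panel. Tnf is highest in control libraries, Tnfsf10, Tnfsf15, Tnfsf8 and Tnfrsf1b in RANKL plus rmCst6 libraries and Tnfrsf9 in RANKL libraries.

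The receptors of TNF itself changed by different amounts. Tnfrsf1a, the broadly expressed receptor with a death domain, had log2 values of 12.38, 12.34 and 12.41 in RANKL plus rmCst6, 11.88, 11.86 and 11.83 in RANKL and 12.61, 12.60 and 12.51 in control libraries. Tnfrsf1b, the receptor of immune cells that binds TRAF adaptors, had 15.34, 15.27 and 15.48 in RANKL plus rmCst6, 13.36, 13.36 and 13.35 in RANKL and 14.30, 14.28 and 14.25 in control libraries. For both genes the RANKL libraries were lowest and no groups overlapped, but RANKL plus rmCst6 lay above control for Tnfrsf1b and below it for Tnfrsf1a. Tnfrsf1b rose 4.02-fold (log2 fold change 2.01 ± 0.05, limma adjusted p = 3.3e-12) and Tnfrsf1a 1.43-fold (0.52 ± 0.04, adjusted p = 2.5e-07) with RANKL plus rmCst6 against RANKL. With RANKL against control, Tnfrsf1b fell 1.89-fold (adjusted p = 7.1e-09) and Tnfrsf1a 1.64-fold (adjusted p = 1.3e-08).

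The difference between the TNF receptors was then taken within each library, where gene length cancels between groups. Tnfrsf1b minus Tnfrsf1a was 2.96, 2.93 and 3.07 in RANKL plus rmCst6, 1.48, 1.50 and 1.52 in RANKL and 1.69, 1.68 and 1.74 in control libraries. Every RANKL plus rmCst6 library was more than 1 log2 unit above every other library. The means differed by 1.49 between RANKL plus rmCst6 and RANKL, by -0.20 between RANKL and control and by 1.28 between RANKL plus rmCst6 and control, each at p = 0.1 by a two-sided exact permutation test, the smallest p possible (6 such tests with those of Tnfsf13 and Tnfsf12, and 0.1 also after Benjamini-Hochberg adjustment). The third receptor with a death domain, Tnfrsf21 (DR6), averaged 9.55, 9.90 and 10.92 in RANKL plus rmCst6, RANKL and control libraries and fell in both comparisons (1.28-fold, adjusted p = 7.5e-04, and 2.03-fold, adjusted p = 6.0e-08, from limma).

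Tnfrsf11b, the soluble receptor that captures RANKL, fell with RANKL. Its log2 values were 4.03, 2.91 and 3.87 in RANKL plus rmCst6, 3.20, 2.79 and 3.40 in RANKL and 5.70, 6.33 and 5.91 in control libraries. The groups given RANKL overlapped each other, and both lay below every control library. It was 7.21-fold lower with RANKL than in control (log2 fold change -2.85 ± 0.35, limma adjusted p = 1.1e-05), or -2.08 on the log2 scale with a further 8 added on the linear scale. The difference of 0.47 with RANKL plus rmCst6 against RANKL was not called (95% interval -0.30 to 1.24), although without RANKL plus rmCst6 replicate 2 it was 0.82 and was called (adjusted p = 0.045). In mice this protein is made mainly by osteoblasts and stromal cells. Of 9 stromal and osteoblast markers tested, 6 were higher with RANKL plus rmCst6 than with RANKL and 6 were lower with RANKL than in control. With RANKL plus rmCst6 against control, 1 was higher and 3 were lower. Among these markers Cxcl12 fell most against control, 12.6-fold with RANKL and 5.77-fold with RANKL plus rmCst6. The summed linear level of the markers was 3350 to 5790 in RANKL plus rmCst6, 2840 to 3370 in RANKL and 5110 to 8500 in control libraries. Tnfrsf11b was 5.19-fold lower with RANKL plus rmCst6 than in control (limma adjusted p = 5.7e-05). The part of such cells in the Tnfrsf11b difference was not tested.

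The mouse decoy receptors of TRAIL, Tnfrsf22 and Tnfrsf23, and their neighbor Tnfrsf26 stand in a row on the minus strand of chromosome 7 (chr7:143607659-143685872). Tnfrsf23 averaged 8.00, 8.88 and 7.56 in RANKL plus rmCst6, RANKL and control libraries, a fall of 1.84-fold with RANKL plus rmCst6 against RANKL (limma adjusted p = 1.6e-04) and a rise of 2.50-fold with RANKL against control (adjusted p = 4.7e-06). Tnfrsf26 ran the other way, at 9.18, 8.07 and 8.67, a rise of 2.17-fold (adjusted p = 3.2e-07) and a fall of 1.52-fold (adjusted p = 9.5e-05). Tnfrsf22, at 7.74, 7.76 and 8.22, was below control both with RANKL plus rmCst6 (1.40-fold lower, adjusted p = 0.0033) and with RANKL (1.38-fold lower, adjusted p = 0.0044), and the 95% interval with RANKL plus rmCst6 against RANKL was -0.29 to 0.24. Tnfrsf22 and Tnfrsf23 share 25.5% and 26.6% of their 31-base words, so reads in the shared stretches could have been split between them and their values are less certain.

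Among the adaptors, Traf1, which binds Traf2 and dampens or sustains receptor signals depending on the receptor, separated the groups given RANKL from control. It had log2 values of 12.28, 12.42 and 12.52 in RANKL plus rmCst6, 12.10, 12.07 and 11.86 in RANKL and 5.47, 5.18 and 5.38 in control libraries. Both groups given RANKL were far above control, with RANKL plus rmCst6 slightly above RANKL. Traf1 was 102-fold higher with RANKL than in control (log2 fold change 6.67 ± 0.09, limma adjusted p = 9.0e-14) and 134-fold higher with RANKL plus rmCst6 than in control (7.06 ± 0.09, adjusted p = 2.2e-14). The further rise with RANKL plus rmCst6 against RANKL was 1.31-fold (0.39 ± 0.09, adjusted p = 0.0020). Traf1 lies at chr2:34941750-34961772 on the minus strand.

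The other Traf adaptors changed less. Traf5, which acts below OX40 and related receptors, averaged 4.14 ± 0.72 in RANKL plus rmCst6, 5.61 ± 0.05 in RANKL and 4.30 ± 0.55 in control libraries (SD, n = 3 each). It fell 2.78-fold with RANKL plus rmCst6 against RANKL (limma adjusted p = 0.0034) and rose 2.48-fold with RANKL against control (adjusted p = 0.0072). Traf4 averaged 4.36, 5.02 and 4.78 and was called in no comparison. Traf7, a WD-repeat ubiquitin ligase, averaged 10.91, 10.79 and 11.22, and fell 1.35-fold with RANKL against control (adjusted p = 8.7e-06). Its difference of 0.12 with RANKL plus rmCst6 against RANKL was not called (adjusted p = 0.053), but was called without RANKL plus rmCst6 replicate 2 (0.045) or RANKL replicate 2 (0.041) and after median centring (0.017). It overlaps Rab26 on the same strand, so some reads could belong to either gene.

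The proteins named for binding Traf3 gave 3 patterns. Traf3ip3 had log2 values of 9.37, 9.31 and 9.42 in RANKL plus rmCst6, 8.34, 8.20 and 8.36 in RANKL and 10.43, 10.44 and 10.32 in control libraries, with no overlap between groups. It rose 2.10-fold with RANKL plus rmCst6 against RANKL (log2 fold change 1.07 ± 0.07, limma adjusted p = 2.5e-08) and fell 4.29-fold with RANKL against control (-2.10 ± 0.07, adjusted p = 6.4e-11). Traf3ip2 (Act1), the adaptor of the IL-17 receptor, averaged 7.32 ± 0.08, 8.90 ± 0.17 and 7.28 ± 0.16 in RANKL plus rmCst6, RANKL and control libraries (SD, n = 3 each). It fell 2.99-fold with RANKL plus rmCst6 against RANKL (adjusted p = 1.2e-07) and rose 3.07-fold with RANKL against control (adjusted p = 1.2e-07). Traf3ip1, a protein of cilia, averaged 7.83, 7.45 and 7.51, and its rise of 1.29-fold with RANKL plus rmCst6 against RANKL (adjusted p = 0.017) was lost without RANKL plus rmCst6 replicate 1 (adjusted p = 0.062) or RANKL replicate 2 (adjusted p = 0.066).

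Of the genes named for induction by TNF, Tnfaip2 changed most. It had log2 values of 12.31, 12.24 and 12.28 in RANKL plus rmCst6, 14.62, 14.51 and 14.54 in RANKL and 14.31, 14.26 and 14.37 in control libraries. The RANKL plus rmCst6 libraries were far below the others. Tnfaip2 fell 4.87-fold with RANKL plus rmCst6 against RANKL (log2 fold change -2.28 ± 0.05, limma adjusted p = 4.3e-13) and rose 1.19-fold with RANKL against control (0.25 ± 0.05, adjusted p = 3.8e-04), or 0.14 on the log2 scale after median centring. It was also 4.10-fold below control with RANKL plus rmCst6 (adjusted p = 1.3e-12). Tnfaip8l2 (TIPE2), a negative regulator of immune receptor signaling, averaged 11.13, 10.47 and 12.02 in RANKL plus rmCst6, RANKL and control libraries. It rose 1.59-fold with RANKL plus rmCst6 against RANKL (adjusted p = 3.1e-07) and fell 2.94-fold with RANKL against control (adjusted p = 1.4e-10).

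The other genes of that kind moved little. Tnfaip8 averaged 11.60, 11.49 and 11.98 in RANKL plus rmCst6, RANKL and control libraries and fell 1.41-fold with RANKL against control (limma adjusted p = 2.8e-07). Tnfaip1 averaged 10.68, 10.54 and 10.70, a fall of 1.12-fold (adjusted p = 0.0097). With RANKL plus rmCst6 against RANKL, Tnfaip8 rose 1.08-fold (adjusted p = 0.026) and Tnfaip1 1.10-fold (adjusted p = 0.019), on log2 differences of 0.11 and 0.14. The Tnfaip8 call was lost without RANKL plus rmCst6 replicate 1 or 3 or RANKL replicate 3 (adjusted p = 0.051 to 0.078). It was also lost after quantile normalization, where the log2 fold change was 0.093. The Tnfaip1 call was lost without RANKL plus rmCst6 replicate 2 or RANKL replicate 2 (adjusted p = 0.063 and 0.077). Tnfaip8l1 averaged 5.87, 6.56 and 6.42, and its fall of 1.61-fold with RANKL plus rmCst6 against RANKL (adjusted p = 0.016) was lost without RANKL plus rmCst6 replicate 3 (log2 fold change -0.43, adjusted p = 0.069) or RANKL replicate 2 (adjusted p = 0.052). Tnfaip6, a hyaluronan-binding secreted protein, was below the filter, at 2.61, 2.24 and 3.38 in RANKL plus rmCst6, 2.10, 2.98 and 1.95 in RANKL and 1.72, 2.33 and 2.45 in control libraries.

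**Figure D3:**
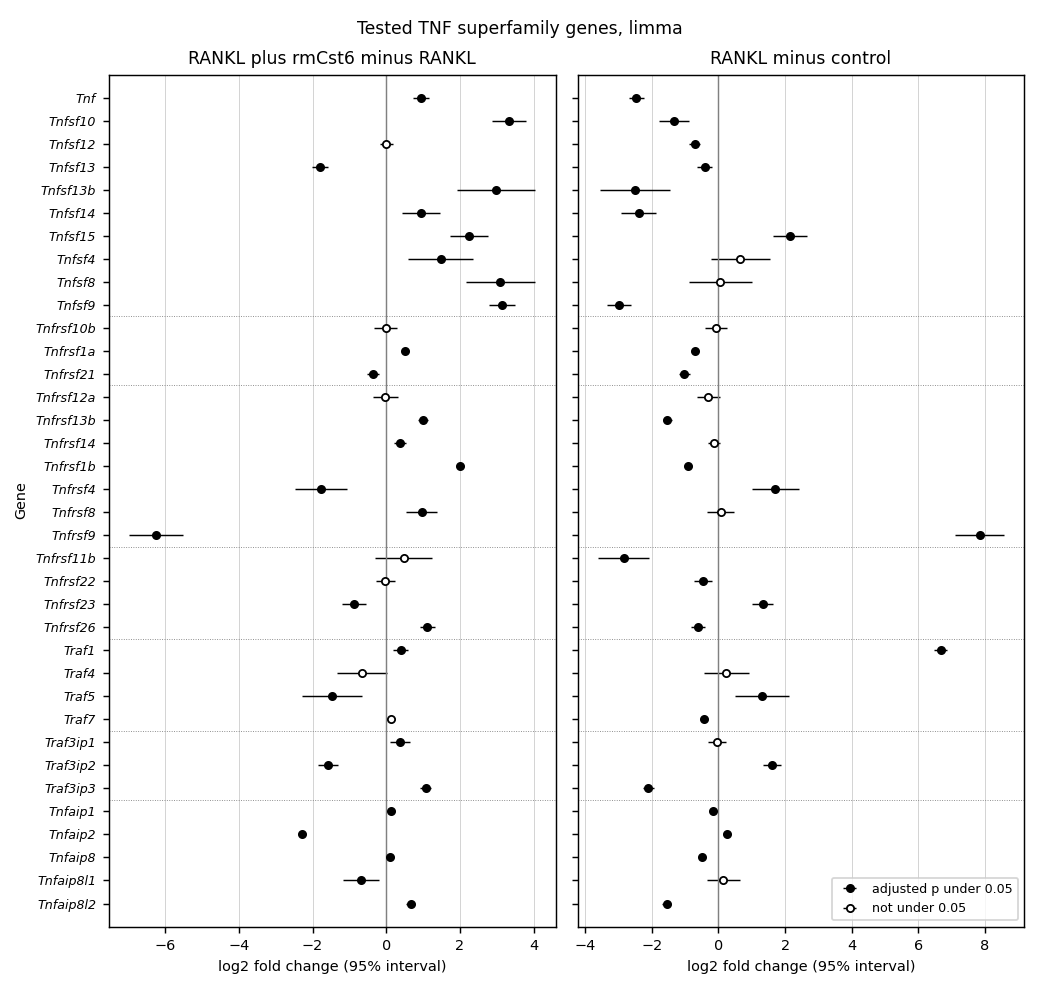
Log2 fold changes of the 36 tested members, by role, with 95% intervals from limma, for RANKL plus rmCst6 minus RANKL (left) and RANKL minus control (right). Filled points have an adjusted p under 0.05. Tnfrsf9 lies at -6.25 on the left and 7.84 on the right, and Traf1 at 0.39 and 6.67.

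Genes of the superfamily that carry other symbols were read from a further list. Of 14 listed genes, 5 were tested. Cd40, the receptor through which T cells activate macrophages, had log2 values of 11.19, 11.40 and 11.54 in RANKL plus rmCst6, 8.22, 8.37 and 8.46 in RANKL and 8.87, 8.85 and 8.51 in control libraries. The RANKL plus rmCst6 libraries stood apart, 8.14-fold above RANKL (log2 fold change 3.03 ± 0.11, limma adjusted p = 1.0e-10), and Cd40 was 1.31-fold lower with RANKL than in control (adjusted p = 0.0079). Relt had 6.57, 6.65 and 5.81 in RANKL plus rmCst6, 8.43, 8.60 and 8.48 in RANKL and 8.85, 8.56 and 8.74 in control libraries. It fell 4.47-fold with RANKL plus rmCst6 against RANKL (-2.16 ± 0.19, adjusted p = 3.6e-07). Ltbr also rose in that comparison, Fas and Ltb were not called, and with RANKL against control Cd40 and Fas were lower.

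Receptor complex and cell death genes were all tested, 26 of 26. With RANKL plus rmCst6 against RANKL, 14 were higher and 4 lower, and with RANKL against control 5 were higher and 12 lower. As shares of the list these were 53.8% and 15.4% in the first comparison, beside 34.8% and 38% of all genes, and 19.2% and 46.2% in the second, beside 36.6% and 35.9% of all genes. The list median was 0.21 and -0.15 in these comparisons. Cflar (cFLIP), which blocks caspase-8, had log2 values of 13.93, 13.97 and 14.01 in RANKL plus rmCst6, 11.67, 11.74 and 11.81 in RANKL and 12.27, 12.22 and 12.30 in control libraries. No groups overlapped, and Cflar rose 4.70-fold with RANKL plus rmCst6 against RANKL (log2 fold change 2.23 ± 0.05, limma adjusted p = 5.6e-13). The other genes here were picked after their values were seen. All 3 subunits of the linear ubiquitin ligase that acts at TNF receptors, Rnf31, Rbck1 and Sharpin, were higher with RANKL plus rmCst6 than with RANKL (log2 fold change 1.65, 0.73 and 0.78) and lower with RANKL than in control (-0.54, -0.41 and -0.44). Tank, which binds TRAF adaptors, averaged 12.52 in RANKL plus rmCst6, 12.40 in RANKL and 9.97 in control libraries, a rise of 2.43 on the log2 scale with RANKL against control (limma adjusted p = 2.7e-12). Mlkl, the executioner of necroptosis, averaged 11.44, 9.84 and 8.62 and rose in both comparisons (1.60 and 1.22).

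Shedding of TNF from the cell surface depends on the protease Adam17 and its partners Rhbdf1 and Rhbdf2. Adam17 averaged 13.13, 13.09 and 13.23 in RANKL plus rmCst6, RANKL and control libraries and was not called with RANKL plus rmCst6 against RANKL (log2 fold change 0.05). Rhbdf1 had 4.39, 2.63 and 3.70 in RANKL plus rmCst6, 8.05, 7.71 and 8.21 in RANKL and 7.70, 8.00 and 7.32 in control libraries. Only the RANKL plus rmCst6 libraries were low, 21.3-fold below RANKL (-4.41 ± 0.36, limma adjusted p = 1.7e-07). Rhbdf2, the partner of Adam17 in macrophages, rose by 1.11 in the same comparison (adjusted p = 2.0e-09). Of the 6 listed genes 1 was higher and 3 were lower with RANKL plus rmCst6 against RANKL, beside 34.8% and 38% of all genes, and 3 were lower with RANKL against control, beside 35.9% of all genes.

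**Figure D4:**
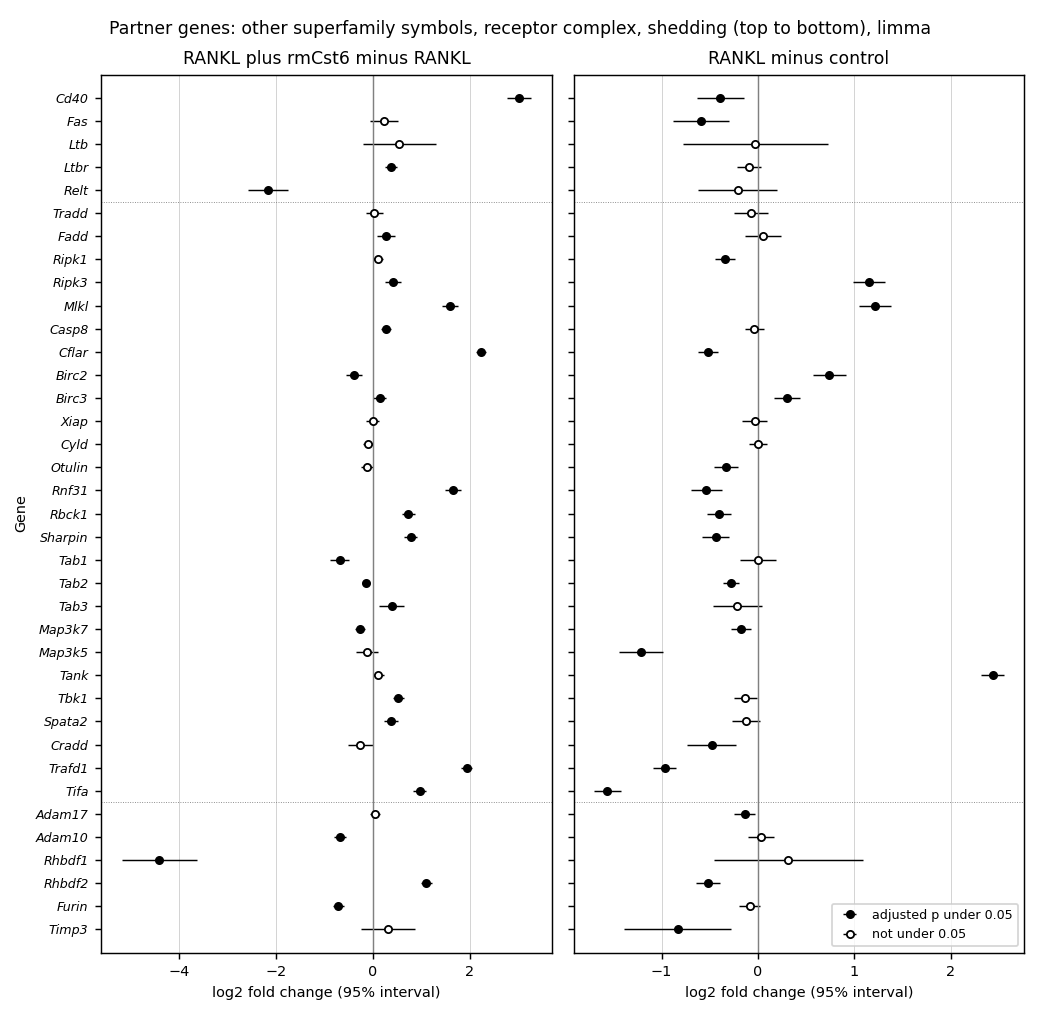
Log2 fold changes with 95% intervals from limma for the tested genes of the further lists (other superfamily symbols, receptor complex and cell death, shedding, from top to bottom), for RANKL plus rmCst6 minus RANKL (left) and RANKL minus control (right). Cd40 and Cflar lie at 3.03 and 2.23 and Rhbdf1 at -4.41 on the left, and Tank at 2.43 on the right.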

How the data were processed

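Bulk RNA-Seq of BM macrophages gave 9 libraries, grouped by their labels. The deposited table gives log2 values of 13526 genes, which the authors had normalized between libraries. The submitters' processing notes name Salmon 1.2.1, DESeq2 and GRCm38.p6 without saying what each was used for, and the sources used here do not say how genes were chosen for it. Read counts were not recovered, since 38.0% to 54.8% of low values in a library came within 0.02 of whole multiples of the step fitted there. Depth is therefore unknown, and the 3 libraries of each group set the precision.

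A filter asked for a linear value of 10 or more in 3 or more libraries, which 12932 genes met and 594 did not. Group means of the 9 libraries were then compared by limma 3.58.1 (R 4.3.3), trend on and robust off, two-sided, with Benjamini-Hochberg adjustment over the genes kept. The fit was also run on simulated data with normal noise and few changed genes. In the data here most genes were called, so that run does not test the fit under these conditions. Values above 0 were never identical between libraries for a tested gene. The members and lists were chosen with earlier results of these data known. Per-library values are given for Tnf, Tnfrsf1a, Tnfrsf1b and each member called with a log2 fold change of at least 2 in either direction with RANKL plus rmCst6 against RANKL or with RANKL against control. From the further lists, genes past 2 with RANKL plus rmCst6 against RANKL are named, and others named are marked or given by their means. Positions are from GENCODE M21 (GRCm38), and promoters are RefSeq windows of the same build. Tested alternatives were other filters, scalings, limma settings, thresholds, the replicate number as a block and leaving out each library.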

Additional observations from a re-analysis of the deposited data

How the results depend on the processing

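Over 1914 refits of single members, 1873 kept their side of the threshold, 30 lost and 11 gained a call, and 0 changed sign with a call in either fit. The 1873 include differences near 0 that changed sign without a call in either fit. For Tnfsf12 with RANKL plus rmCst6 against RANKL, the log2 fold change of 0.0048 became -0.039 without RANKL plus rmCst6 replicate 1. Requiring at least a 2-fold change left 16 members (3591 genes) with RANKL plus rmCst6 against RANKL, 17 (3403 genes) with RANKL against control and 15 (3317 genes) with RANKL plus rmCst6 against control. Leaving out single libraries gave 27 to 30, 27 to 28 and 23 to 26 members in these comparisons. Beside these, 8948 to 9382, 8909 to 9394 and 8827 to 9385 of all 12932 genes tested were called. Median centring moved the median of all genes with RANKL against control to -0.12, against -0.01 as deposited, and Tnfrsf12a and Tnfrsf14 were then called lower with RANKL than in control (adjusted p = 0.025 and 0.018 from limma), Tnfrsf12a also lower with RANKL plus rmCst6 than in control (0.030), Traf7 higher with RANKL plus rmCst6 than with RANKL (0.017), while Tnfrsf14 with RANKL plus rmCst6 against control was no longer called (0.078).

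With the replicate number as a replicate block, 29, 27 and 27 members were called, beside 9358, 9354 and 9267 of all genes. The member counts were as without the block, which changed no member's call. Same-numbered libraries of different groups had deviations correlated at r = -0.08 to 0.07, so the numbers were not taken to pair the libraries. Values of genes near 0, such as Tnfsf4, Tnfsf8, Tnfsf13b and Tnfrsf9, carry the least certain fold changes.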
